A study of Mus musculus with 6 samples.

Results

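A panel of 10 genes from the transforming growth factor beta (TGF-beta) pathway was read out in cultured mouse CD8+ T cells, which kill virus-infected and cancer cells. They were taken by name from the deposited table, which held all 10 members among its 14481 genes: the ligand genes Tgfb1 and Tgfb3, the receptor genes Tgfbr1 and Tgfbr2, the signal carriers Smad2, Smad3 and Smad4, the inhibitors Smad7 and Skil, and the target gene Cdkn2b. Wild-type sorted cells had been activated for 1 day on plates coated with anti-CD3 (1 µg/ml) in RPMI with 10% serum, to which interleukin 2 (0.1 µg/ml) and soluble anti-CD28 (1 µg/ml) were added. Conditioned medium (CM) of astrospheres that were pSTAT3+ or pSTAT3- was then present for 2 days, until RNA was taken at day 3. pSTAT3 is the phosphorylated form of the transcription factor STAT3, and the labels do not say what separates the astrospheres of either kind. Each medium had 3 libraries, called STAT3- CM and STAT3+ CM, and cells without CM were not analysed here.

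TGF-beta is secreted in a latent form and, once released, brings together a pair of receptor kinases, TGFBR2 and TGFBR1. TGFBR1 then phosphorylates SMAD2 and SMAD3, which join SMAD4 and enter the nucleus to switch genes on or off, among them the genes of their own inhibitors. In CD8+ T cells the pathway is known for restraining proliferation and cytotoxic genes and for inducing the integrin chain CD103, which holds cells in epithelia.

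Library totals were 43346089 to 53630514 counts, and values are given as CPM, counts relative to the library total after TMM adjustment. The 8 T cell identity genes summed to 2930 to 3120 CPM under STAT3- CM and 2950 to 3730 under STAT3+ CM with Cd8a and Cd8b1 among them. All 8 had positive log2 fold changes of STAT3+ CM over STAT3- CM, with a median of 0.191. Cd247 and Lck had groups that lay apart, STAT3+ CM above, where 7.95% of all genes lay apart. The part of these identity genes in the values of genes higher under STAT3+ CM, such as Smad3, was not tested. All 10 members passed the filter on low counts. In edgeR's quasi-likelihood fit, with Benjamini-Hochberg adjustment over 14319 genes, 0 members passed an adjusted p of 0.05, where 0% of all genes did, and DESeq2 also called 0, where it called 0.335% of all genes. At an unadjusted edgeR p under 0.05 stood 2 of the 10, Smad3 and Cdkn2b, against 3.64% of all genes. The labels do not tie replicates to separate mice or cultures, so p-values reflect only how these libraries vary. In RNA of a whole culture, fewer cells of a type and less RNA per cell cannot be told apart.

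**Figure D1:**
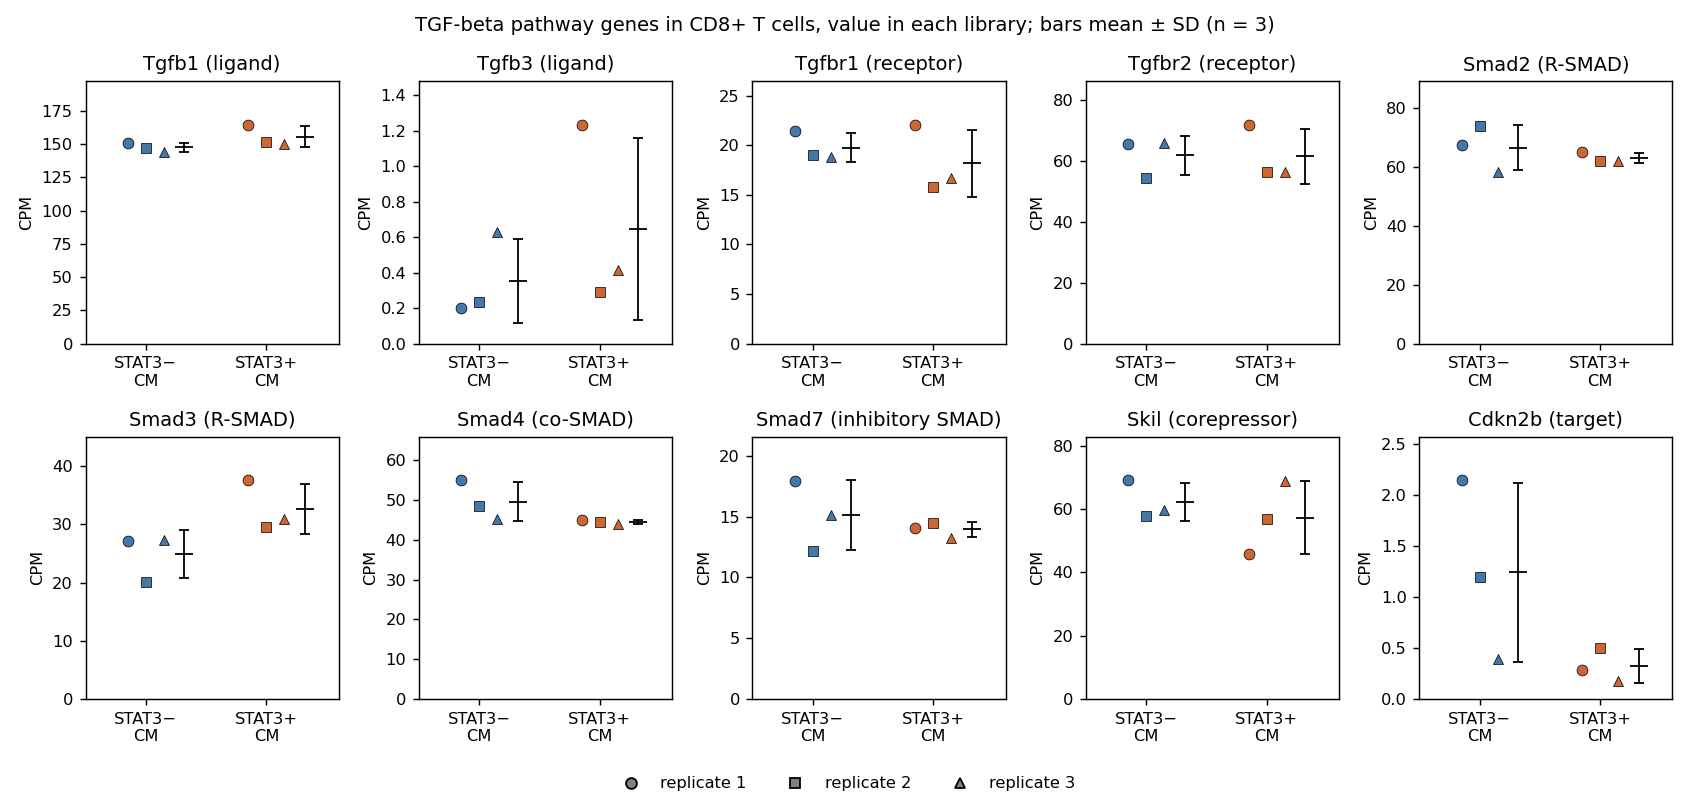
CPM of the 10 genes in each of the 6 libraries, with a separate linear axis from 0 for each gene; symbols mark the replicate, and bars the mean and SD of 3 libraries. The Smad3 points of STAT3+ CM lie above those of STAT3- CM, the lowest at 29.6 and the highest at 27.4, while Cdkn2b spreads from 0.181 to 2.14 CPM.

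Levels of different genes were set side by side per kilobase of annotated exon. On that scale Tgfb1 had the highest level of the members, 29.2 ± 0.681 CPM per kb under STAT3- CM and 30.8 ± 1.57 under STAT3+ CM (mean ± SD, n = 3). Smad4 came next, with 11.9 to 14.8 CPM per kb over the 6 libraries, and did not overlap Tgfb1 or any lower member. Tgfbr2 (6.65 to 8.78 CPM per kb), Smad2 (6.67 to 8.42), Skil (4.74 to 7.13) and Smad3 (3.63 to 6.78) formed a run in which each range overlapped the next. Smad7, at 2.70 to 3.97 CPM per kb, overlapped both Smad3 above it and Tgfbr1 below it (2.41 to 3.37), so Tgfbr1 was the less abundant receptor transcript per length. Cdkn2b (0.130 to 1.54 CPM per kb) and Tgfb3 (0.0587 to 0.365) were below all the others and overlapped each other.

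Tgfb1 encodes the TGF-beta form that T cells themselves mainly make. It stood at 151, 147 and 144 CPM in STAT3- CM replicates 1 to 3 and at 164, 151.8 and 149.8 CPM in STAT3+ CM replicates 1 to 3. The groups overlapped narrowly, with STAT3+ CM replicate 3 below STAT3- CM replicate 1, and the log2 fold change of STAT3+ CM over STAT3- CM was 0.07 (SE 0.11, 95% interval -0.17 to 0.32, adjusted p = 0.989 by edgeR). With upper-quartile scaling its groups lay apart, STAT3+ CM above. The interval allows at most a 1.25-fold higher level, and its lower end lies at 0.886 of the STAT3- CM level. Of the members Tgfb1 had the lowest ratio of highest to lowest library, 1.14.

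Tgfb3, the gene of a second TGF-beta isoform, was close to the detection floor. Its reads numbered 9, 11 and 29 under STAT3- CM and 56, 12 and 23 under STAT3+ CM, or 0.199, 0.234 and 0.628 CPM against 1.23, 0.288 and 0.415. STAT3+ CM replicate 1 was highest and STAT3- CM replicate 3 second, and these were also the libraries farthest out on the second and the first principal component of all genes. The log2 fold change was 0.85 (SE 0.61, 95% interval -0.51 to 2.22), and without STAT3+ CM replicate 1 it was 0.0234. Counting for Tgfb3 is less certain, because 2 unmeasured genes on the opposite strand share 163 and 257 exonic bases with it in GENCODE M21 and the strand setting of the counts is not given.

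Both receptor transcripts overlapped between the groups. Tgfbr1, the type I receptor kinase that phosphorylates SMAD2 and SMAD3, stood at 21.4, 19.1 and 18.8 CPM under STAT3- CM and 22.1, 15.7 and 16.7 under STAT3+ CM. STAT3+ CM held both its highest and its lowest library, and the log2 fold change was -0.12 (SE 0.16, 95% interval -0.48 to 0.24). Tgfbr2, the type II kinase that binds the ligand first, stood at 65.5, 54.5 and 65.8 CPM under STAT3- CM and 71.9, 56.4 and 56.4 under STAT3+ CM. Its groups overlapped almost fully, with a log2 fold change of -0.0085 (SE 0.14, 95% interval -0.32 to 0.31). Its sign changed under 5 of 17 other settings.

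**Figure D2:**
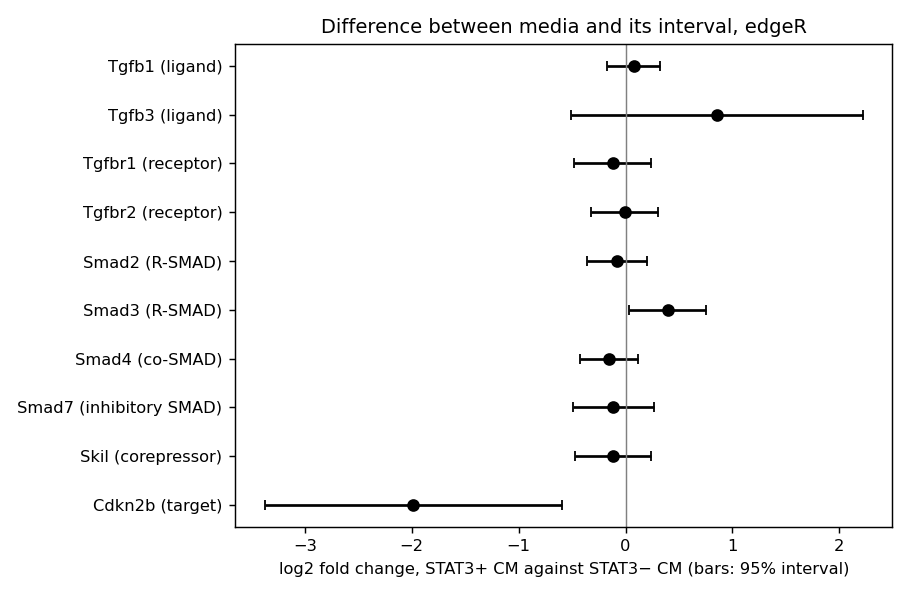
Log2 fold change of each member, STAT3+ CM against STAT3- CM, with its 95% interval from the edgeR fit. The intervals of Smad3 (0.04 to 0.75) and Cdkn2b (-3.37 to -0.60) do not reach 0 before adjustment over all genes, and the other 8 span it.

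Smad3 had the smallest p of the SMAD genes. It encodes a receptor-activated SMAD that binds DNA directly, and it stood at 27.1, 20.1 and 27.4 CPM under STAT3- CM and 37.6, 29.6 and 30.9 under STAT3+ CM. All 3 libraries of STAT3+ CM lay above all 3 of STAT3- CM, with 2.2 CPM between the nearest libraries. The log2 fold change was 0.39 (SE 0.16, 95% interval 0.04 to 0.75), a 1.31-fold higher mean, with an unadjusted p of 0.0342 and an adjusted p of 0.989 by edgeR. Scaled by library totals alone, the groups overlapped. The value was 0.257 without STAT3- CM replicate 2 (unadjusted edgeR p 0.155) and 0.283 without STAT3+ CM replicate 1 (0.130), and it stayed positive in all 17 alternatives.

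Smad2, the other receptor-activated SMAD of this pathway, stood at 67.6, 74.0 and 58.5 CPM under STAT3- CM and 65.1, 62.04 and 62.2 under STAT3+ CM. The STAT3+ CM libraries lay inside the range of STAT3- CM, and the log2 fold change was -0.08 (SE 0.13, 95% interval -0.36 to 0.20). Smad4, the shared partner of the activated SMADs, stood at 54.9, 48.5 and 45.3 CPM under STAT3- CM and 44.9, 44.5 and 44.04 under STAT3+ CM. Its groups did not overlap, though STAT3- CM replicate 3 and STAT3+ CM replicate 1 were only 0.361 CPM apart, and the log2 fold change was -0.16 (SE 0.12, 95% interval -0.43 to 0.11, adjusted p = 0.989 by edgeR), or -0.0763 without STAT3- CM replicate 1. Smad3 and Smad4 were the 2 members of 10 whose groups lay apart, where 7.95% of all genes did.

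Ratios of read counts within a library do not depend on how libraries are scaled, and 5 were computed after the values of the members had been seen, so they carry no test. Smad3 to Smad2 was 0.401, 0.272 and 0.468 under STAT3- CM and 0.577, 0.477 and 0.496 under STAT3+ CM. The groups lay apart narrowly, with means of 0.38 ± 0.0997 and 0.517 ± 0.0534. Smad3 to Smad4 was 0.494, 0.414 and 0.604 against 0.836, 0.665 and 0.701, a 1.46-fold higher mean under STAT3+ CM, with all STAT3+ CM libraries above. Smad7 to Smad3 was 0.662, 0.607 and 0.554 against 0.375, 0.49 and 0.429, so the inhibitor was lower relative to Smad3 in all STAT3+ CM libraries. Smad2 to Smad4, at 1.35 ± 0.155 and 1.42 ± 0.0271, and Tgfbr2 to Tgfbr1, at 3.14 ± 0.326 and 3.41 ± 0.164, overlapped. The 3 ratios that lay apart are those with Smad3 in them, so they are not independent of its own values.

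**Figure D3:**
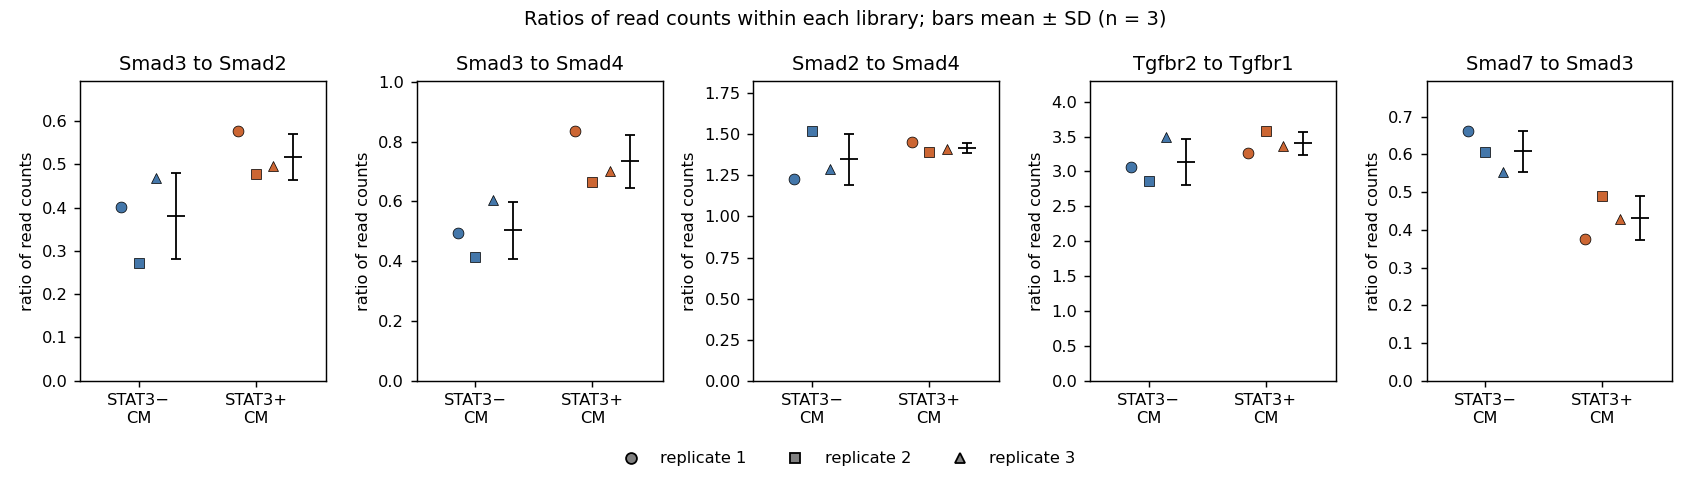
Ratios of read counts of member pairs in each library, on linear axes from 0; symbols mark the replicate, and bars the mean and SD of 3 libraries. Smad3 to Smad2 and Smad3 to Smad4 are higher and Smad7 to Smad3 is lower in every STAT3+ CM library, and the other 2 ratios overlap.

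The inhibitors Smad7 and Skil are themselves induced by active SMADs and serve as an early readout of the pathway. Smad7, which blocks TGFBR1, stood at 17.9, 12.2 and 15.2 CPM under STAT3- CM and 14.1, 14.5 and 13.3 under STAT3+ CM. The STAT3+ CM libraries lay within the range of STAT3- CM, with a log2 fold change of -0.12 (SE 0.17, 95% interval -0.50 to 0.26). Skil encodes the corepressor SnoN, which holds SMAD complexes inactive on DNA. It stood at 69.1, 57.8 and 59.7 CPM under STAT3- CM and 45.9, 56.9 and 68.9 under STAT3+ CM. STAT3+ CM replicate 1 was the lowest and replicate 3 nearly as high as the highest STAT3- CM library, and the log2 fold change was -0.12 (SE 0.16, 95% interval -0.47 to 0.23). For both genes the sign turned when 1 library was left out, to 0.0267 for Smad7 without STAT3- CM replicate 1 and to 0.0178 for Skil without STAT3+ CM replicate 1.

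Cdkn2b encodes the cyclin-dependent kinase inhibitor p15, a classic cytostatic target of TGF-beta in epithelial cells. Its reads numbered 97, 56 and 18 under STAT3- CM and 13, 21 and 10 under STAT3+ CM, or 2.14, 1.19 and 0.390 CPM against 0.286, 0.504 and 0.181. STAT3- CM replicates 1 and 2 stood above the rest, while STAT3- CM replicate 3 lay below STAT3+ CM replicate 2, so the groups overlapped. The log2 fold change was -1.99 (SE 0.62, 95% interval -3.37 to -0.60), the largest in size among the members, with an unadjusted p of 0.00969 and an adjusted p of 0.989 by edgeR, and an adjusted p of 0.335 by DESeq2. Over 16 alternatives that kept the gene the edgeR, DESeq2 or limma adjusted p ran from 0.106 to 1, and the log2 fold change from -2.42 to -1.35, the last without STAT3- CM replicate 1. The filter of at least 1 CPM in at least 3 libraries removed Cdkn2b. Its neighbour Cdkn2a is alike in part of its sequence, so the split of reads between them is uncertain. The summed CPM of the 7 of 11 dendritic cell markers present was also lower under STAT3+ CM. Flt3, Clec9a, Xcr1 and Siglech were absent from the table. In replicates 1 to 3 the sum was 147, 185 and 132 CPM under STAT3- CM and 99.1, 120 and 95.3 under STAT3+ CM. It was highest in STAT3- CM replicate 2, and Cdkn2b in STAT3- CM replicate 1. Of these 7 markers 6 had negative log2 fold changes and 1 a positive one. The groups of 4 lay apart (H2-Aa, H2-Eb1, Cd74 and Zbtb46), where 7.95% of all genes did. Of the markers edgeR called 0, and DESeq2 called H2-Aa and Cd74, where it called 0.335% of all genes. The part of the dendritic cell markers in the Cdkn2b values was not tested.

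The sequences before the start sites of Smad3 and Cdkn2b are shown because these members had the smallest p-values. They are the 250 bases before the start in RefSeq (GRCm38.p6, while the submitters' processing notes name GRCm39), read on the minus strand, at chr9:63757995-63758244 for Smad3 and chr4:89311033-89311282 for Cdkn2b. Capitals mark motif matches on either strand.
Smad3: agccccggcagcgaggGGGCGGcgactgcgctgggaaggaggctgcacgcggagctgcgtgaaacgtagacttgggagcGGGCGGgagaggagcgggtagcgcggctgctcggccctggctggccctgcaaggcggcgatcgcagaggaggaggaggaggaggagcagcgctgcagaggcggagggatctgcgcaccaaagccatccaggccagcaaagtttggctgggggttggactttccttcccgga
Cdkn2b: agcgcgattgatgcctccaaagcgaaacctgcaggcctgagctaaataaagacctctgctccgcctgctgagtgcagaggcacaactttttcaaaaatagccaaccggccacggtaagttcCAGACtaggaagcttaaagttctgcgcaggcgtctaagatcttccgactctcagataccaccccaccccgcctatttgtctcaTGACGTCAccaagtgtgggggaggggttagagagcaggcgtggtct
The motifs searched were CAGAC, the core of the SMAD-binding CAGA box; GTCTAGAC, the palindromic SMAD element; GGCGCC, a GC-rich SMAD site; GGGCGG, the GC box of SP factors; and TGACGTCA, the cAMP response element, which was added after the Cdkn2b sequence had been seen. The Smad3 window held 2 GC boxes, beginning 234 and 171 bases before the start, and no match of the other motifs. Of 32851 mouse windows of this length 32.7% held a GC box. The Cdkn2b window held CAGAC 129 bases and TGACGTCA 46 bases before the start, which do not overlap, where 42.2% and 1.55% of windows hold them. Of the other members with an entry, Tgfb1 had 5 GC boxes, Tgfbr2 had 1 CAGAC, and Tgfbr1 had 2 GC boxes and 1 GGCGCC in one window and 1 CAGAC in the other. These are matches of letters and not measured binding.

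Over the members 3 log2 fold changes were positive and 7 negative, with a median of -0.098, beside 0.00076 for all genes tested. STAT3+ CM replicate 1 was the highest library for 5 members, Tgfb1, Tgfb3, Tgfbr1, Tgfbr2 and Smad3, and STAT3- CM replicate 1 for 4, Smad4, Smad7, Skil and Cdkn2b. Of all genes tested, 19.2% were highest in the first of these libraries and 15.6% in the second.

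Among other genes of ligand supply and latency, 0 of 10 tested passed, and 3 lay apart between the groups (7.95% of all genes). Thbs1, whose product thrombospondin 1 can release TGF-beta from latency, stood at 2.41, 1.43 and 1.21 CPM under STAT3- CM and 0.154, 0.721 and 1.08 under STAT3+ CM (log2 fold change -1.31, SE 0.49), and its value was -0.864 without STAT3+ CM replicate 1 and -1.97 without STAT3+ CM replicate 3. Ltbp1, which ties latent TGF-beta to the matrix, stood at 1.66, 0.681 and 0.585 CPM and 0.264, 0.552 and 0.488 (-1.15, SE 0.48), and without STAT3- CM replicate 1 its value was -0.538. Both transcripts were low, and every STAT3+ CM library lay below every STAT3- CM library. The summed dendritic cell markers given with Cdkn2b were lower under STAT3+ CM too. Their sum was highest in STAT3- CM replicate 2, and Thbs1 and Ltbp1 were highest in STAT3- CM replicate 1. The part of these markers was not tested. Nrros, which binds latent TGF-beta on immune cells, stood at 52.96, 51.1 and 44.1 CPM against 59.98, 56.3 and 55.9 (0.22, SE 0.12), with no overlap. Inhba, the activin A subunit, stood at 9.43 ± 3.17 and 5.19 ± 3.20 CPM (-0.84, SE 0.41) and overlapped, and its value was -0.485 without STAT3+ CM replicate 1 and -1.45 without STAT3+ CM replicate 3. The list had 2 positive and 8 negative values with a median of -0.214, and its genes Itgb8, Itgb6 and Dcn were absent from the table.

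Of 10 other receptors and co-receptors 0 passed, with 6 positive values and a median of 0.061. The smallest p-values were those of the decoy receptor Bambi (1.15 ± 0.554 CPM under STAT3- CM, 1.89 ± 0.363 under STAT3+ CM, log2 fold change 0.72) and the activin receptor Acvr2a (2.36 ± 0.684 and 1.57 ± 0.335 CPM, -0.58). They were followed by the type I receptors Acvrl1 (0.63) and Acvr1 (-0.43), whose groups lay apart in opposite directions, where 7.95% of all genes lay apart. Acvrl1 was low and nearly tied, at 1.061 CPM in STAT3- CM replicate 3 and 1.065 in STAT3+ CM replicate 3. The nearest libraries of Acvr1 were STAT3- CM replicate 1 at 3.71 CPM and STAT3+ CM replicate 3 at 3.50. Without STAT3+ CM replicate 1 the log2 fold changes of Acvrl1 and Acvr1 were 0.276 and -0.19. Bambi had 1.18 without STAT3- CM replicate 3 and Acvr2a -0.323 without STAT3- CM replicate 1. Of 13 other SMADs and SMAD partners 0 passed, with 10 negative values and a median of -0.13. The corepressor Ski stood at 35.2 ± 4.63 and 27.99 ± 4.80 CPM (-0.33, SE 0.16), and the acetyltransferase Ep300 (-0.36), the repressor Tgif1 (-0.22) and Sp1 (-0.19) came next by p. Of 14 genes of turnover and inhibition 0 passed, with 11 negative values and a median of -0.0819, led by p by the deubiquitinase Usp9x (-0.20), Strap (0.14), the ubiquitin ligase Cbl (-0.17) and the SMAD7-degrading ligase Rnf111 (-0.11). The 10 genes of the SMAD-independent arm, which runs through kinases such as TAK1 and p38, had 0 called, 7 negative values and a median of -0.0897, with Tab2 (-0.23), Traf6 (-0.21), Mapk14 (-0.12) and Rock1 (-0.11) first by p. In these 3 lists no gene had groups that lay apart.

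**Figure D4:**
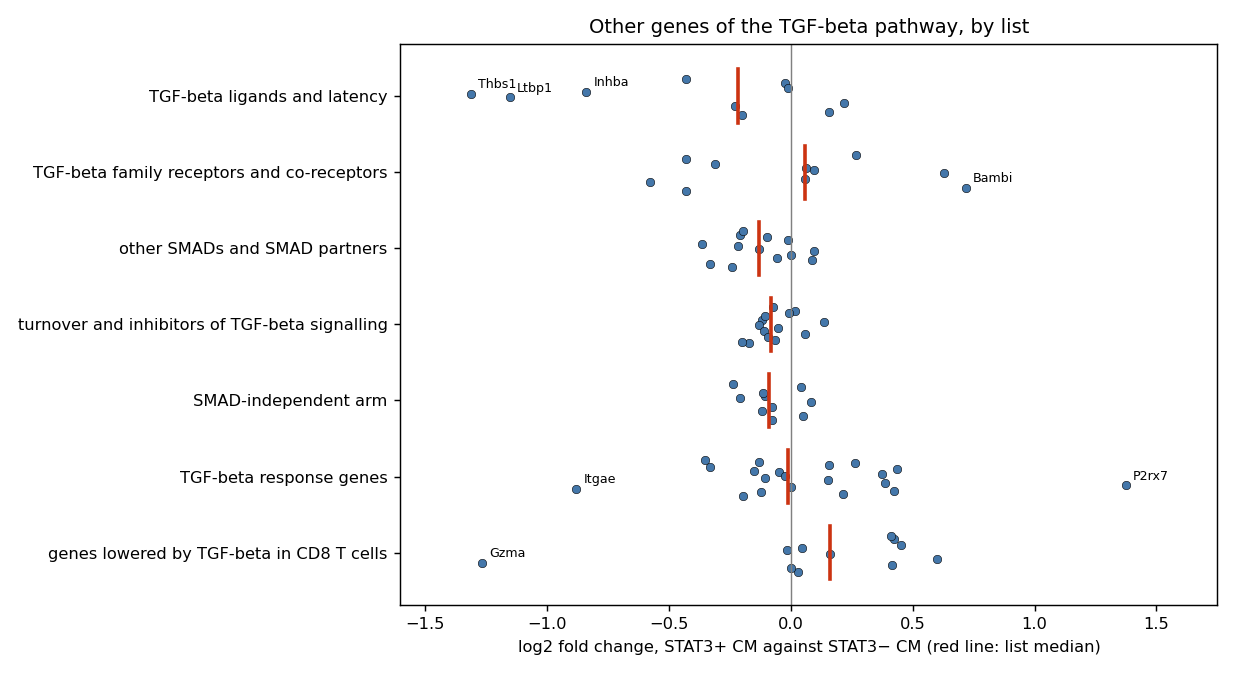
Log2 fold change, STAT3+ CM against STAT3- CM, of each tested gene of the 7 pathway lists (points, spread vertically for legibility), with the list median as a red line and genes past 0.7 in size named. Medians lie between -0.214 and 0.161, and P2rx7 at 1.37 and Thbs1 at -1.31 are the outermost points.

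Genes that TGF-beta is known to induce or alter in T cells went both ways, 10 positive and 10 negative of 20 tested, with a median of -0.0116. The groups of 3 lay apart, P2rx7, Myc and Itgae, where 7.95% of all genes did. By edgeR 0 passed, and DESeq2 called 1, P2rx7, an ATP-gated channel gene, on the higher side: it stood at 1.17, 1.64 and 1.04 CPM under STAT3- CM and 4.23, 3.24 and 2.60 under STAT3+ CM (log2 fold change 1.37, SE 0.29, with adjusted p-values of 0.533 in edgeR and 0.00782 in DESeq2). Itgae, which encodes CD103, stood at 19.8, 9.43 and 8.68 CPM under STAT3- CM and 6.04, 8.31 and 6.30 under STAT3+ CM (-0.88, SE 0.31, edgeR adjusted p = 0.989). All STAT3+ CM libraries lay below all STAT3- CM libraries, and without STAT3- CM replicate 1 the value was -0.40. The part of the dendritic cell markers given with Cdkn2b, whose sum but not every gene was lower under STAT3+ CM, was not tested here. Myc, which TGF-beta represses in many cells, stood at 295 ± 11.8 and 342 ± 3.30 CPM (0.21, SE 0.12) with no overlap. Pmepa1, a feedback inhibitor, stood at 22.1, 18.4 and 19.3 CPM under STAT3- CM and 19.5, 20.7 and 14.5 under STAT3+ CM (-0.13, SE 0.17). The groups of Pmepa1 overlapped, as did those of Ski.

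Genes that TGF-beta is known to lower in CD8+ T cells had 9 positive and 2 negative values of 11 tested, beside 7189 positive of 14319 genes. Their median was 0.161, and edgeR and DESeq2 called 0. The groups of 2 lay apart, Prf1 and Gzmb, where 7.95% of all genes did. At an unadjusted edgeR p under 0.05 stood 2, both positive, where 3.64% of all genes stood there. Prf1, the gene of the pore-former perforin, stood at 165, 149 and 160.3 CPM under STAT3- CM and 174, 223 and 322 under STAT3+ CM (log2 fold change 0.60, SE 0.20), with no overlap, and without STAT3+ CM replicate 3 the value was 0.329. Tbx21, the effector regulator T-bet, stood at 63.2, 72.5 and 50.6 CPM against 66.04, 92.1 and 90.5 (0.42, SE 0.17) and overlapped. Gzmb, granzyme B, stood at 3755, 5451 and 6129 CPM under STAT3- CM and 7211, 6172 and 7188 under STAT3+ CM (0.42, SE 0.20). Its groups lay apart only narrowly, between STAT3- CM replicate 3 and STAT3+ CM replicate 2, and STAT3- CM replicate 1 was its lowest library. Gzma stood at 18.8 ± 17.4 and 7.84 ± 1.90 CPM (-1.27, SE 0.61) with overlap, and without STAT3- CM replicate 1 its value was -0.221. The lists were assembled with earlier results on these libraries known, so their directions are a description only.

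Over the 6 libraries the genes most like Smad3, among 8488 with a mean of at least 10 CPM, were Cd3e (Pearson r 0.971), a chain of the T cell receptor complex, Zdhhc20 (0.971) and Slc28a2b (0.955). Those most like Cdkn2b were Cc2d1b (0.982), Crtap (0.981) and Kbtbd4 (0.968). The last 3 varied far less than Cdkn2b: Cc2d1b stood at 79.4 ± 4.33 CPM under STAT3- CM and 74.9 ± 2.02 under STAT3+ CM. With so many candidates and 6 points, such values are a description of shared order only.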

How the data were processed

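The authors deposited 1 table of whole-number read counts per gene with 1 column per library, matched to samples by the library names in the labels. Tools in the submitters' processing notes are Cufflinks 2.2.1, TopHat2 2.0.10, SAMtools 0.1.19, Bowtie 1.0.0 and FastQC, with the build GRCm39. For the counting step the program, annotation and strand setting were not given in the sources used here. The lowest gene total was 40, so genes below some minimum are missing. Per the labels, polyadenylated RNA was prepared with a directional kit from 500 ng.

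Of 14481 genes filterByExpr kept 14319. TMM-scaled counts were compared in edgeR 4.0.16 (R 4.3.3) with its robust quasi-likelihood F test (edgeR 4 method). SE is the size of the log2 fold change divided by the root of F, and 95% intervals use the fit's degrees of freedom. Two-sided p-values carry the Benjamini-Hochberg adjustment across every tested gene, and 0.05 was the threshold. The workflow was run on simulated counts with known changes, where the only requirement set was that called genes had the right sign. Alternatives used DESeq2 1.42.0, limma 3.58.1, other scalings and filters, the replicate number as a block, and fits without single libraries. A fit without a pair of outlying libraries was added after the data had been seen. Exon lengths and overlapping genes came from GENCODE M21 (GRCm38), and promoters, with entries for 5 of the 10 members, from RefSeq.

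Members and lists were chosen with earlier results of these data known. Named genes are all members, the 4 genes of each list with the smallest p, Itgae, Pmepa1 and Ski, and the 3 genes most like Smad3 and Cdkn2b by Pearson r of log2 CPM (prior count 2). The ratios, the Cdkn2b neighbours and the other INK4 genes were chosen after their values were seen.

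Marker sums beside dendritic cells and T cell identity were, under STAT3- CM and STAT3+ CM, 683 to 916 and 643 to 840 CPM for CD4 and regulatory T cells, 237 to 256 and 231 to 282 for NK cells, 7.4 to 10.7 and 10.9 to 11.8 for B cells (only Cd79b present), 3.70 to 10.3 and 3.63 to 5.6 for macrophages, 0.971 to 1.65 and 1.01 to 1.3 for platelets, 0.468 to 1.34 and 0.456 to 1.14 for stroma, and 1.57 to 2.6 and 1.49 to 2.75 for astrocytes and neural stem cells (Gfap and Sox2 absent).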

Additional observations from a re-analysis of the deposited data

How the results depend on the processing

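Members called stayed at 0 in all 17 alternatives, and so did the calls in 6 of the 7 pathway lists; in the list of response genes DESeq2 called 1, P2rx7 (log2 fold change 1.39, adjusted p = 0.00782). Over all genes edgeR called 0, DESeq2 48, limma-voom with quality weights 14, and fits without 1 library 0 to 18, the most without STAT3- CM replicate 3. With both STAT3- CM replicate 3 and STAT3+ CM replicate 1 left out, a fit added after seeing the data, edgeR called 10. The median of the members (-0.0978) ran from -0.13 to -0.00457 without single libraries, the last without STAT3- CM replicate 1. Some signs turned, and Dmrta1 was the largest in size of these values in the fit of all libraries (-0.509). Tgfbr2 was 0.00232 by limma-voom with quality weights and -0.135 to 0.0515 without single libraries. Without single libraries Smad7 ran from -0.252 to 0.0267, Skil from -0.275 to 0.0178, Cbl from -0.288 to 0.0286, Pmepa1 from -0.232 to 0.0119, Mtap from -0.0213 to 0.217, Dmrta1 from -0.975 to 0.864 and Cdkn2c from -0.319 to 0.155. Mtap was -0.0136 without the pair of libraries. The causes were not tested. Libraries of equal replicate number did not stand out, with correlations of -0.261, 0.281 and 0.182 across genes, beside -0.495 to 0.423 for unequal numbers. These were taken on deviations from means of 3 libraries, so they cannot exclude pairing. With the replicate block edgeR again called 0 genes, and Smad3 was 0.40 and Cdkn2b -1.86 (adjusted p = 0.933 and 0.522). Depth limits Tgfb3 and Cdkn2b, with as few as 9 and 10 reads in a library.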

Other observations

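Cdkn2b lies beside Cdkn2a in RefSeq's gene order, the gene of the cell cycle inhibitor p16 and of ARF, and these neighbours were ordered alike among the STAT3- CM libraries. Cdkn2a reads numbered 196, 148 and 72 under STAT3- CM and 59, 55 and 51 under STAT3+ CM, or 4.33, 3.15 and 1.56 CPM against 1.30, 1.32 and 0.921. As with Cdkn2b, STAT3- CM replicate 1 was highest, then replicate 2, and STAT3+ CM replicate 3 was lowest. Here the groups lay apart, where 7.95% of all genes did, and Cdkn2a was chosen after its values were seen. The log2 fold change of Cdkn2a was -1.37 (SE 0.38, 95% interval -2.22 to -0.52), with an adjusted p of 0.841 by edgeR and 0.113 by DESeq2, and it was -1.01 without STAT3- CM replicate 1. The next gene on the Cdkn2a side, the metabolic gene Mtap, stood at 147 ± 25.6 and 159 ± 4.80 CPM (0.11, SE 0.14), and on the other side Dmrta1 had 3 to 29 reads per library with groups that overlapped. The other INK4 inhibitor genes, Cdkn2c at 25.6 ± 1.47 and 24.7 ± 7.93 CPM (-0.06, SE 0.21) and Cdkn2d at 50.6 ± 10.5 and 58.6 ± 11.3 CPM (0.21, SE 0.18), overlapped between the groups. Parts of Cdkn2a and Cdkn2b are alike in sequence, and how the counting divided reads between them was not tested. The summed dendritic cell markers, at 147, 185 and 132 CPM against 99.1, 120 and 95.3, were lower under STAT3+ CM as well. Their sum was highest in STAT3- CM replicate 2 and Cdkn2a in STAT3- CM replicate 1. The part of these markers in the Cdkn2a values was not tested.

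STAT3- CM replicate 1 was the highest of the 6 libraries for each of 6 SMAD feedback and target genes, Smad7, Skil, Cdkn2b, Itgae, Pmepa1 and Ski, a set chosen after the values were seen. That library was the highest for 15.6% of all genes tested. For Skil it exceeded STAT3+ CM replicate 3 only narrowly (69.1 against 68.9 CPM). It was not the highest library for Tgfb1, Tgfb3, Tgfbr1, Tgfbr2 or Smad3, which peaked in STAT3+ CM replicate 1. The members did not split by role, since Smad4 was also highest in STAT3- CM replicate 1 and Smad2 in STAT3- CM replicate 2.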
